A study of Mus musculus with 7 samples.

Results

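The 8 genes that encode the subunits of the chaperonin TRiC (Tcp1, Cct2, Cct3, Cct4, Cct5, Cct6a, Cct7 and Cct8) were examined in the cerebral cortex of mice without a working creatine transporter. They were listed by name, as the constitutive subunits of the complex, with earlier results of these data known. They are 8 of the 24346 genes measured. Bulk RNA-seq of whole cortex was available from 4 CrT-/y animals and 3 CrT+/y animals, with 1 library per animal. CrT-/y males are hemizygous for a deletion in the X-linked Slc6a8, the gene of the creatine transporter, in every cell of the body, and CrT+/y males are their wild-type littermates. All animals were on a C57BL/6J background and were taken at postnatal day 100. Values are FPKM, fragment counts scaled to transcript length and to the mapped fragments of the library. The labels number the CrT-/y replicates from 0 to 3 and the CrT+/y replicates from 1 to 3, and values are given in that order.

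TRiC, also called CCT, is the chaperonin of the eukaryotic cytosol. It is built of a pair of stacked rings, and each ring holds every one of the subunits once, so that a protein can be enclosed in the chamber and folded with the energy of ATP. The subunits are paralogs that share an ATPase domain and differ in the apical domain that touches the substrate. Actins, tubulins and many proteins with WD40 propellers depend on TRiC, which makes it important for the cytoskeleton of neurons. Prefoldin hands unfolded actin and tubulin to TRiC, and phosducin-like proteins bind it as cochaperones.

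All 8 genes were expressed in every animal, between 42.7 and 101.0 FPKM, and their means lay between the 86.2 and 93.8 percentiles of the 12988 genes tested. Cct2 (subunit beta) and Cct5 (subunit epsilon) fell in CrT-/y animals by 11.55% and 10.3% of the CrT+/y mean, and Cct8 (subunit theta), 11.0% lower, narrowly missed the threshold. Tcp1 (subunit alpha) was lower in each CrT-/y animal than in any CrT+/y animal, but by a smaller amount. Cct3, Cct4, Cct6a and Cct7 overlapped between the genotypes. No member rose.

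In limma, with Benjamini-Hochberg adjustment over all genes tested and a threshold of 0.1, 2 of 8 members were called lower and 0 were called higher, where 7.25% of all genes tested were called lower and 2.90% higher. An unadjusted p under 0.05 was met by 3 of 8 members and by 25.0% of all genes. The groups did not overlap for 4 members, each lower in CrT-/y, where 15.0% of all genes tested were lower and 6.57% higher without overlap. The mean was lower in CrT-/y for 7 of 8 members, and this held for 58.2% of all genes. The median log2 fold change (CrT-/y minus CrT+/y) was -0.10 over the members and -0.03 over all genes tested. The calls of Cct2 and Cct5 did not hold when any 1 animal other than CrT+/y replicate 3 was left out. They were also lost with quantile normalization, upper quartile scaling, median centring, the correction for transcript length, no filter on low values and no variance trend. With a minimum of 5 FPKM 3 members were called lower, where 11.1% of all genes were called lower and 3.43% higher, and with array weights 3 were called lower, where these shares were 9.97% and 4.64%.

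The libraries carried the genotype of their labels: Slc6a8 had 12.4 to 15.7 FPKM in CrT-/y and 28.05 to 32.3 FPKM in CrT+/y, and its log2 fold change was -1.05 (limma adjusted p = 0.0024). The study lists reads per library under other CrT-/y numbers than the labels, and these totals are not used here. Estimated from the steps between low FPKM values, the relative depth of the other libraries was 1.05 to 1.42 times that of the shallowest library, CrT+/y replicate 1. Markers of cortical neurons were present in every animal. Summed endothelial markers ran from 80.4 to 95.6 FPKM in CrT-/y and from 97.7 to 117.5 FPKM in CrT+/y, and 3 of 4 were called lower. Summed olfactory bulb markers ran from 5.95 to 16.3 FPKM in CrT-/y and from 2.91 to 5.25 FPKM in CrT+/y. Of these 4 markers only 2 were expressed enough to be tested, and 1, Cdhr1, was called higher. Of the excitatory neuron markers 2 of 5 were called lower, and of the interneuron markers 1 of 6 was called higher. No marker of astrocytes, oligodendrocytes, their precursors, microglia, ependyma and choroid plexus, blood or striatum was called, although some sums varied widely. Summed striatal markers varied from 86.3 to 224.3 FPKM in CrT-/y and from 48.9 to 186.7 FPKM in CrT+/y. Summed ependymal and choroid plexus markers reached 394.3 FPKM in CrT+/y replicate 2. They were 8.09 and 22.4 FPKM in CrT+/y replicates 1 and 3, and 7.58 to 53.8 FPKM in CrT-/y. Summed oligodendrocyte markers ran from 815.2 FPKM (replicate 3) to 1248 FPKM in CrT-/y and from 1136 to 1480 FPKM in CrT+/y. The part of these shifts in the TRiC values was not tested. In bulk cortex, fewer cells of a type and less RNA per cell cannot be told apart.

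The DNA upstream of 4 members is shown, and they were picked after the values that follow were seen. Cct2, Cct5 and Cct8 were lowest relative to CrT+/y. Cct7, which was not called, was the member whose mean was higher, by a small amount. RefSeq (GRCm38.p6) windows of the 250 bases before the gene start were available for 7 of 8 members. Each sequence reads 5′ to 3′ along the strand of its gene and ends at the base before the start. Capitals mark matches, on either strand, to a GC box with the letters GGGCGG, to the CCAAT box, to an ETS core with the letters CCGGAA, or to a heat shock element of 2 units (GAANNTTC or TTCNNGAA). None of the marked matches overlaps another. The windows lie at chr10:117063853-117064102 on the minus strand for Cct2, at chr16:87495870-87496119 on the minus strand for Cct8, at chr15:31601847-31602096 on the minus strand for Cct5, and at chr6:85451255-85451504 on the plus strand for Cct7.
Cct2: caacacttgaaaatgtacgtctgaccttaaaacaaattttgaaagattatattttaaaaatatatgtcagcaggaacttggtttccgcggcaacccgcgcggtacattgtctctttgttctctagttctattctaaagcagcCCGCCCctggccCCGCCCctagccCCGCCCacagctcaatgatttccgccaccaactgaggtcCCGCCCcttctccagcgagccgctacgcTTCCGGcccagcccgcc
Cct8: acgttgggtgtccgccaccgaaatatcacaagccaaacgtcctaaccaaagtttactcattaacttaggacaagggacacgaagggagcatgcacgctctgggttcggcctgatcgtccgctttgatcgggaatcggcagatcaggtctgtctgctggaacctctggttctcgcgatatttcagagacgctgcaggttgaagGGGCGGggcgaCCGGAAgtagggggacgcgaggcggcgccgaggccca
Cct5: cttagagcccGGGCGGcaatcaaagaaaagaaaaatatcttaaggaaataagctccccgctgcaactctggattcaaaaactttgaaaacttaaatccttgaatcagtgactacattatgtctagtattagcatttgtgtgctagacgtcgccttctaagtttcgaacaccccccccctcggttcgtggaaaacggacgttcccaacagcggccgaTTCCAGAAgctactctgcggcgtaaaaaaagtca
Cct7: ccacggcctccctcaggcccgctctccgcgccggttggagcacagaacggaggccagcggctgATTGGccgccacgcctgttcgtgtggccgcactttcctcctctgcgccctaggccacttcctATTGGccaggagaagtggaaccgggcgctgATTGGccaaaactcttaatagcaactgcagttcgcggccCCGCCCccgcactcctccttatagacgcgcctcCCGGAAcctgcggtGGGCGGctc

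Member counts use the first listed window of each gene. A GC box, the sequence bound by Sp1-like factors, was present in 7 of 7 member windows. It was in 60.4% of the windows of the 9868 tested genes with one, and in 32.7% of all 32851 RefSeq promoter windows of this length. The ETS core was found in 4 of 7 (Tcp1, Cct2, Cct7 and Cct8), in 21.5% of those of tested genes and in 12.03% of all windows. The window of a second annotated start of Cct5 had an ETS core but no GC box. That of a second start of Cct2 had a GC box but no ETS core. A CCAAT box, the site of NF-Y, was found in 4 of 7 (Tcp1, Cct3, Cct6a and Cct7) in 36.0% of those of tested genes and in 33.8% of all windows, and the windows of Cct2, Cct5 and Cct8 had none. That split was noticed after the fold changes were known. Over the 9868 tested genes with a window the median log2 fold change was -0.03 both with and without a CCAAT box. A heat shock element of 2 units stood in the window of Cct5, in 9.81% of those of tested genes and in 12.8% of all windows, and a second annotated start of Cct2 also had one. The longer heat shock element of 3 units was in 0 of 7 member windows and in 0.466% of all windows. The E-box (CACGTG), the NRF1 site and a promoter palindrome with a CGCG centre were each in 0 of 7 member windows, and in 6.02%, 0.782% and 0.39% of all windows. These matches describe letters in the window and are not evidence of binding.

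Cct2 (chr10:117051001-117063814, minus strand, mm10) had 82.9, 79.96, 80.3 and 79.6 FPKM in CrT-/y animals and 95.2, 92.3 and 86.2 FPKM in CrT+/y animals. The 4 CrT-/y values were all below the 3 CrT+/y values, and the latter were spread more widely. The means were 80.7 ± 1.49 (SD, n = 4) and 91.2 ± 4.60 (SD, n = 3), a log2 fold change of -0.18 with an SE of 0.052 (limma adjusted p = 0.091). In the exact permutation test over the 35 splits of the animals p was 0.0286 (two-sided), the smallest value that this design allows.

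Cct5 (chr15:31590800-31601804, minus strand) had 66.2, 66.6, 64.8 and 67.6 FPKM in CrT-/y and 73.3, 72.6 and 75.8 FPKM in CrT+/y animals. The genotypes were again apart, here with a small spread in both. The means were 66.3 ± 1.15 (SD, n = 4) and 73.9 ± 1.68 (SD, n = 3), and the log2 fold change was -0.16 with an SE of 0.047 (limma adjusted p = 0.092, exact permutation p = 0.0286). Mutations of the human gene of subunit epsilon are known from a hereditary sensory neuropathy.

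Cct8 (chr16:87483326-87495873, minus strand) was the most abundant subunit, with 89.2, 83.1, 87.3 and 84.4 FPKM in CrT-/y and 101.0, 96.5 and 92.3 FPKM in CrT+/y animals. The groups did not overlap, and CrT+/y replicate 3 was the lowest of its group, as it was for Cct2. The means were 86.0 ± 2.79 (SD, n = 4) and 96.6 ± 4.33 (SD, n = 3), with a log2 fold change of -0.17 (SE 0.054), which did not pass (limma adjusted p = 0.11, exact permutation p = 0.0286). The 95% interval of the log2 difference ran from -0.29 to -0.05. Without CrT+/y replicate 3 the log2 fold change of Cct8 was -0.20 and passed (limma adjusted p = 0.030). Cct8 overlaps Usp16 by 192 bp on the opposite strand. The strand used in counting is not given in the sources used here, so any reads of these genes within that stretch cannot be told apart.

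Tcp1 (chr17:12915701-12925067, plus strand), the founding member of the family, had 71.1, 71.8, 69.6 and 68.8 FPKM in CrT-/y and 73.2, 73.9 and 74.4 FPKM in CrT+/y animals. The genotypes were apart by a narrow margin. The log2 fold change was -0.07 with an SE of 0.046 (limma adjusted p = 0.36, exact permutation p = 0.0571). Its gene overlaps Mrpl18 by 645 bp and Acat3 by 1255 bp on the opposite strand, with the same limit as for Cct8.

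Cct4 (subunit delta, chr11:22990519-23003780, plus strand) had 50.0, 42.7, 50.5 and 44.5 FPKM in CrT-/y and 49.0, 49.8 and 55.7 FPKM in CrT+/y animals. The CrT-/y animals fell into a higher and a lower pair, and the higher pair lay among the CrT+/y values. The log2 fold change was -0.14 with a 95% interval from -0.31 to 0.04 (limma adjusted p = 0.30). A difference as large as that of Cct2 lies within this interval.

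Cct3 (subunit gamma, chr3:88297116-88321767, plus strand) had 48.1, 46.8, 44.9 and 44.5 FPKM in CrT-/y and 45.0, 46.4 and 51.2 FPKM in CrT+/y animals. Cct6a (subunit zeta, chr5:129786998-129846371, plus strand) had 72.2, 70.5, 70.6 and 68.5 FPKM in CrT-/y and 72.7, 69.0 and 77.9 FPKM in CrT+/y animals. In both genes CrT+/y replicate 3 was the highest of the 7 animals. CrT+/y replicates 1 and 2 lay within the CrT-/y range for Cct3, and replicate 2 did for Cct6a. The log2 fold changes were -0.04 for Cct3 and -0.05 for Cct6a (limma adjusted p = 0.70 and 0.59), and both were above 0 with quantile normalization and with upper quartile scaling. The 95% intervals, from -0.18 to 0.09 and from -0.18 to 0.07, reach falls of the size seen in Cct2. Cct6a overlaps Psph by 452 bp on the opposite strand, with the same limit as for Cct8.

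Cct7 (subunit eta, chr6:85451514-85468475, plus strand) had 57.6, 57.3, 59.2 and 58.0 FPKM in CrT-/y and 53.4, 53.4 and 64.7 FPKM in CrT+/y animals. The 4 CrT-/y animals lay close together between the low and the high CrT+/y values, with a coefficient of variation of 1.39% against 11.5% in CrT+/y. The log2 fold change was 0.03 (limma adjusted p = 0.85), and its 95% interval ran from -0.14 to 0.19. Without CrT+/y replicate 3 the log2 fold change was 0.12 and Cct7 was called higher (limma adjusted p = 0.084), where 10.3% of all genes tested were called higher. Cct7 overlaps Pradc1 by 457 bp on the opposite strand, with that limit too.

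**Figure D1:**
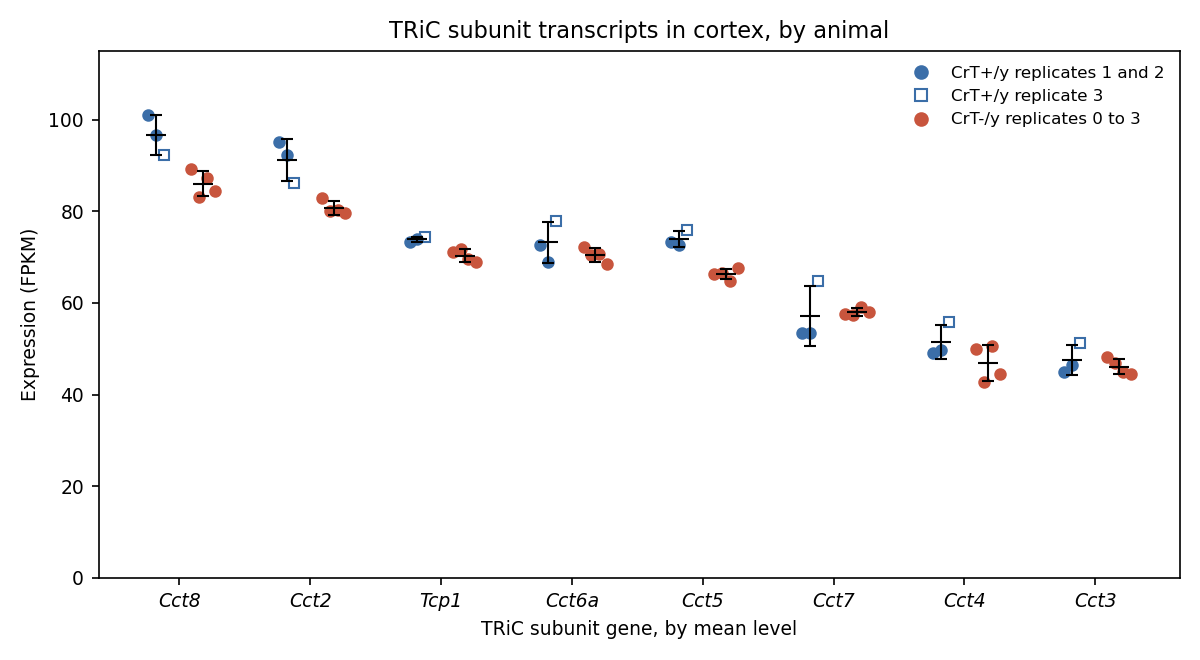
FPKM of the 8 TRiC genes in each cortex, with 1 point per animal (open squares are CrT+/y replicate 3) and the mean ± SD of each genotype in black. The CrT-/y points lie below the CrT+/y points without overlap for Cct2, Cct5, Cct8 and Tcp1, while for Cct7 the CrT-/y points, from 57.3 to 59.2 FPKM, lie between CrT+/y values of 53.4 and 64.7 FPKM.

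**Figure D2:**
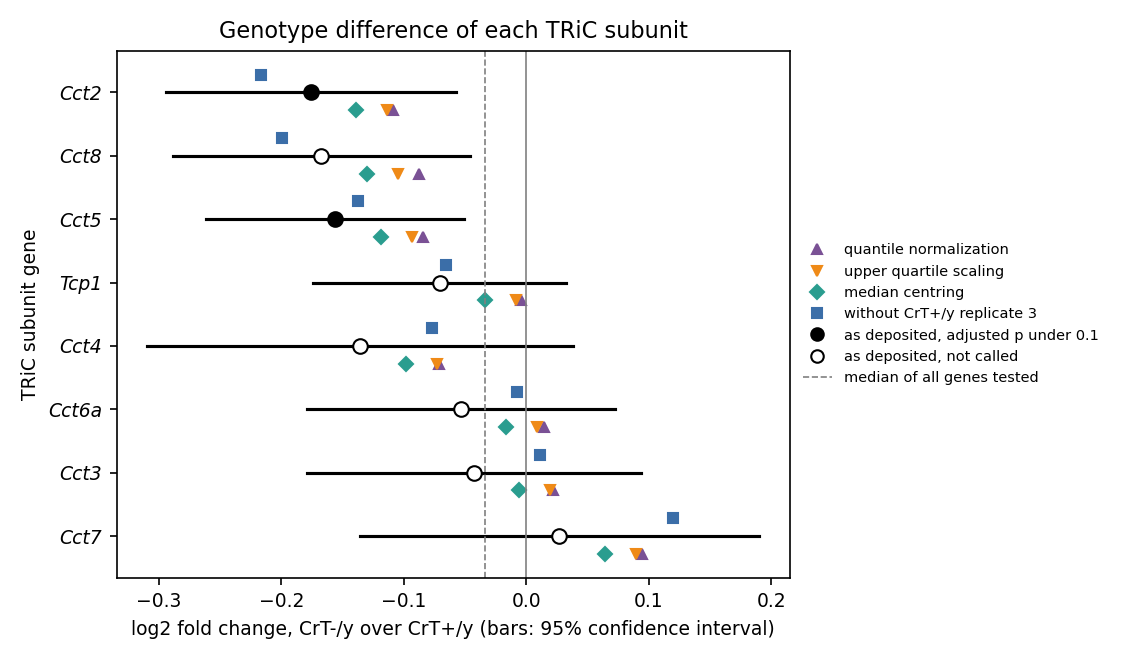
Log2 fold change (CrT-/y minus CrT+/y) of each TRiC gene with its 95% interval from limma, filled where called, with the estimates under 3 other scalings and without CrT+/y replicate 3 as coloured marks. The intervals of Cct2, Cct5 and Cct8 lie below 0, with estimates of -0.18, -0.16 and -0.17, and those of the other 5 genes include 0.

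CrT+/y replicate 3 set much of the spread. It was the highest of the 3 CrT+/y animals for 6 of 8 members and the lowest for the other 2, Cct2 and Cct8, while over all genes tested it was the highest for 33.4%. Relative to the mean of the other CrT+/y animals it was higher by 0.28 on the log2 scale for Cct7, by 0.17 for Cct4, by 0.16 for Cct3 and by 0.14 for Cct6a. The same log2 difference was -0.12 for Cct2 and -0.10 for Cct8, and its median over all genes was -0.02. Without this animal 3 members were called lower and 1 higher, where 18.4% of all genes tested were called lower.

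The summed FPKM of the 8 subunits was 537.3, 518.8, 527.2 and 515.9 in CrT-/y animals and 562.8, 553.9 and 578.2 in CrT+/y animals. The sums did not overlap between the genotypes, with means of 524.8 ± 9.62 (SD, n = 4) and 565.0 ± 12.3 (SD, n = 3). The median of the 8 log2 values, each centred on the mean of its gene, ran from -0.07 to -0.01 in CrT-/y and from 0.03 to 0.12 in CrT+/y animals. The upper quartile of FPKM over all genes above 0 was also apart between the genotypes, at 18.4 to 18.8 in CrT-/y and 19.5 to 20.05 in CrT+/y libraries. The sums are a description of the list and carry no test, and the part of the upper quartile in them was not tested.

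**Figure D3:**
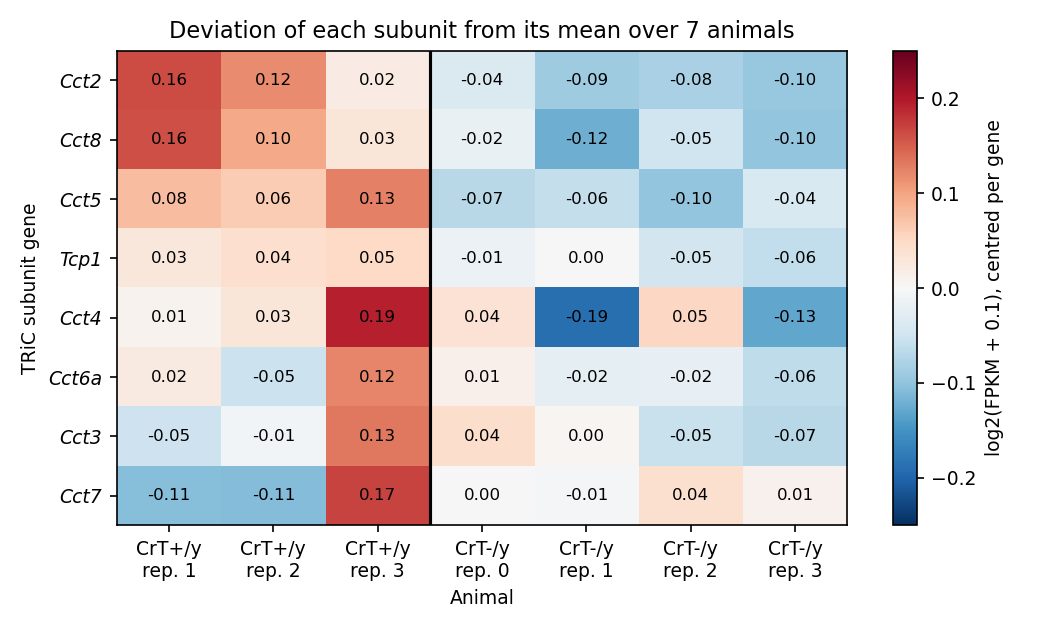
Log2 expression of each TRiC gene in each of the 7 animals, centred on the mean of the gene, so that 0 is the average over animals. CrT+/y replicate 3 has values from 0.12 to 0.19 for Cct4, Cct7, Cct3, Cct5 and Cct6a. Its values are lower, though above 0, for Tcp1 (0.05), Cct8 (0.03) and Cct2 (0.02).

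The subunits did not share 1 level, although the complex holds them in equal number. On the FPKM scale, which is per length of transcript, the order by mean over the 7 animals was Cct8, Cct2, Tcp1, Cct6a, Cct5, Cct7, Cct4 and Cct3. The highest mean, 90.6 FPKM, was 1.94 times the lowest, 46.7 FPKM. Cct8 exceeded Cct2 in 7 of 7 animals and Cct2 exceeded Tcp1 in 7 of 7. Tcp1, Cct6a and Cct5 could not be ordered, since Tcp1 exceeded Cct6a in 4 of 7 animals and Cct6a exceeded Cct5 in 5 of 7. Cct5 exceeded Cct7, and Cct7 exceeded Cct4, in 7 of 7 animals, and Cct4 exceeded Cct3 in 6 of 7.

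The make-up of the TRiC transcripts was described by the share of each subunit in the sum, where equal shares would be 12.5%. All 8 shares overlapped between the genotypes. Cct7 made up 11.1% ± 0.241 (SD, n = 4) in CrT-/y and 10.1% ± 0.945 (SD, n = 3) in CrT+/y animals, a difference of 0.95 percentage points. Cct2 made up 15.4% ± 0.091 (SD, n = 4) and 16.2% ± 1.09 (SD, n = 3), and Cct8 made up 16.4% ± 0.272 (SD, n = 4) and 17.1% ± 1.03 (SD, n = 3). Without CrT+/y replicate 3 the difference (CrT-/y minus CrT+/y) was 1.49 points for Cct7, and it went from -0.786 to -1.41 for Cct2 and from -0.729 to -1.30 for Cct8. Without CrT+/y replicate 1 it was -0.41 for Cct2 and -0.314 for Cct8. For these 3 genes, and for Cct3 and Cct6a, the shares varied less among CrT-/y than among CrT+/y animals. The reverse held for Tcp1, Cct4 and Cct5. The SD of the Cct5 share was 0.397 points in CrT-/y and 0.0538 in CrT+/y animals.

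Cct2 and Cct8, the most abundant subunits, also had the most similar profiles. Their centred log2 values differed by a root mean square of 0.021 over the 7 animals, while 3 other tested genes were closer to Cct2 than Cct8 was and 10 were closer to Cct8 than Cct2 was. The next pair, Cct3 and Cct6a, differed by 0.039. The most unlike pairs were Cct2 with Cct7, at 0.16, and Cct7 with Cct8, at 0.15. The genes closest to the mean profile of the 8 members were Scarb1 (0.014), Arhgdia (0.015), Zfp706 (0.017), Sptb (0.018) and Pip4k2b (0.020), and none of these 5 was called between genotypes (limma adjusted p from 0.32 to 0.49). Each of these 5 was closer to that mean than any member, of which Tcp1 was the closest at 0.033 and Cct7 the farthest at 0.090. The points share libraries and genotype, so likeness over 7 animals is a description.

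A protein coding gene starting on the opposite strand within 1000 bp was annotated for 5 of 8 members (62.5%) and for 16.1% of the tested genes with an annotation. The partner of Cct5, Fam173b, starts 48 bp away and had a log2 fold change of 0.10 (limma adjusted p = 0.67) beside -0.16 for Cct5. The partner of Cct7, Pradc1, had a log2 fold change of 0.12, that of Tcp1, Mrpl18, -0.05, that of Cct6a, Psph, 0.08, and that of Cct3, Tsacc, 0.55. None of the 5 partners was called (limma adjusted p from 0.55 to 0.73).

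Around TRiC, 19 genes of 9 lists of partners, substrates and other chaperones were called, and 14 of these were in the heat shock list. That list had 20 tested genes. Elsewhere, 1 of 6 tested prefoldin genes, 1 of 3 phosducin-like and thioredoxin-like genes and 1 of 3 chaperonin-like genes were called. The mitochondrial chaperonin had 1 of 2 called and the tubulins 1 of 13. None was called of 7 tubulin folding cofactors, 6 actins and 23 WD40 and other substrates. Over all genes tested 10.1% were called in either direction. The direction of all 19 was kept in each of the 20 settings in which the gene was tested. The calls were less stable: 3 of the 19 (Chordc1, Hsph1 and Stip1) were called in every setting. Outside the heat shock list, Hspd1 was called in 15 of 20 settings, Tubb2a in 11, Pfdn1 and Mkks in 10 each, and Pdcl in 5. Among the partners that deliver substrates, prefoldin had 1 of 6 subunits higher, 0 lower and a median log2 fold change of 0.00. Pfdn1 rose, with 26.3 to 28.1 FPKM in CrT-/y and 19.6 to 24.8 FPKM in CrT+/y animals and a log2 fold change of 0.28 (SE 0.079, limma adjusted p = 0.079). The other 5 subunits were not called, with log2 fold changes of -0.21 for Pfdn5, -0.15 for Pfdn2, -0.07 for Pfdn4, 0.08 for Pfdn6 and 0.13 for Vbp1. The prefoldin genes did not move in 1 direction.

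Of the phosducin-like and thioredoxin-like cochaperones, 3 of 5 were expressed enough to be tested, and 1 fell. Pdcl, which assists TRiC in assembling G protein beta and gamma subunits, had 10.2 to 11.9 FPKM in CrT-/y and 12.6 to 13.0 FPKM in CrT+/y, and its log2 fold change was -0.23 (limma adjusted p = 0.095). The call of Pdcl was lost with each other scaling and without any 1 animal except CrT+/y replicate 3. Pdcl3, the most abundant of the list, had a mean of 11.6 FPKM in CrT-/y and 10.9 FPKM in CrT+/y animals and was not called. Among the chaperonin-like genes of Bardet-Biedl syndrome, Mkks fell from a mean of 9.06 to 7.42 FPKM, a log2 fold change of -0.28 (limma adjusted p = 0.061), and Bbs10 and Bbs12 were not called. The paralogs Cct6b and Cct8l1 were at most 0.234 and 0.115 FPKM in any animal and were not tested.

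The mitochondrial chaperonin, the distant relative of TRiC in the matrix, is made of Hspd1 with its lid Hspe1. Hspd1 fell, with 71.4 to 74.99 FPKM in CrT-/y and 81.8 to 94.3 FPKM in CrT+/y animals and a log2 fold change of -0.30 (SE 0.061, limma adjusted p = 0.040). Hspe1 had means of 62.6 and 70.1 FPKM and a log2 fold change of -0.16 that did not pass (limma adjusted p = 0.19).

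Of the substrates of TRiC, 1 gene was called, where 10.1% of all genes tested were called in either direction and 25.0% had an unadjusted p under 0.05. Of 6 actins and actin-related genes 0 were called (limma, with 1 at an unadjusted p under 0.05), and the median log2 fold change was 0.05. Actb, the most abundant, had means of 911.5 and 855.3 FPKM in CrT-/y and CrT+/y. Of 13 tested tubulins, 1 was called. Tubb2a rose from a mean of 153.1 ± 29.4 (SD, n = 3) to 201.2 ± 14.4 FPKM (SD, n = 4), a log2 fold change of 0.41 (limma adjusted p = 0.079), although its groups overlapped. Tuba1a, the most abundant tubulin, had means of 522.4 and 482.0 FPKM and was not called.

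Of 23 tested WD40 and other substrates 0 were called in limma, with 5 at an unadjusted p under 0.05, and Gnb1, the most abundant, had means of 285.9 and 296.0 FPKM. The 7 tubulin folding cofactors, which act on tubulin after its release from TRiC, had a median log2 fold change of 0.16, with 6 of 7 above 0, 0 called in limma and 4 at an unadjusted p under 0.05, which 25.0% of all genes tested met. Tbca, the most abundant of them, had means of 43.1 and 36.6 FPKM.

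The heat shock list held most of the calls. Of 20 heat shock factors and cytosolic chaperones known as targets of HSF1, 14 were called lower and 0 higher, where 7.25% of all genes tested were called lower and 2.90% higher, with a median log2 fold change of -0.27 beside -0.10 for TRiC. The list was chosen with earlier results of these data known. Chordc1, an HSP90 cochaperone, had 19.1 to 20.0 FPKM in CrT-/y and 32.1 to 36.3 FPKM in CrT+/y, and its log2 fold change was -0.78 (limma adjusted p = 0.0024). Hsph1, a nucleotide exchange factor of HSP70, fell by 0.55 on the log2 scale, Stip1, which links HSP70 and HSP90, by 0.42, and the HSP90 cochaperone Fkbp4 by 0.35.

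Hspa8, the constitutive HSP70 and the most abundant of the list, had means of 761.8 and 921.9 FPKM, a log2 fold change of -0.28 (limma adjusted p = 0.092). Hsf1, the transcription factor of the heat shock response, had 9.94 to 11.6 FPKM in CrT-/y and 12.4 to 13.2 FPKM in CrT+/y, and its log2 fold change was -0.30 (limma adjusted p = 0.058). The other 8 that fell were Hspa1b, Hspb1, Hsp90ab1, Hspa4, Dnaja1, Ahsa1, Cacybp and Ptges3, with log2 fold changes from -0.71 to -0.19. Leaving out CrT-/y replicate 1 left 3 of the 20 called, beside 64 of all genes tested, and the median log2 fold change was then -0.24.

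**Figure D4:**
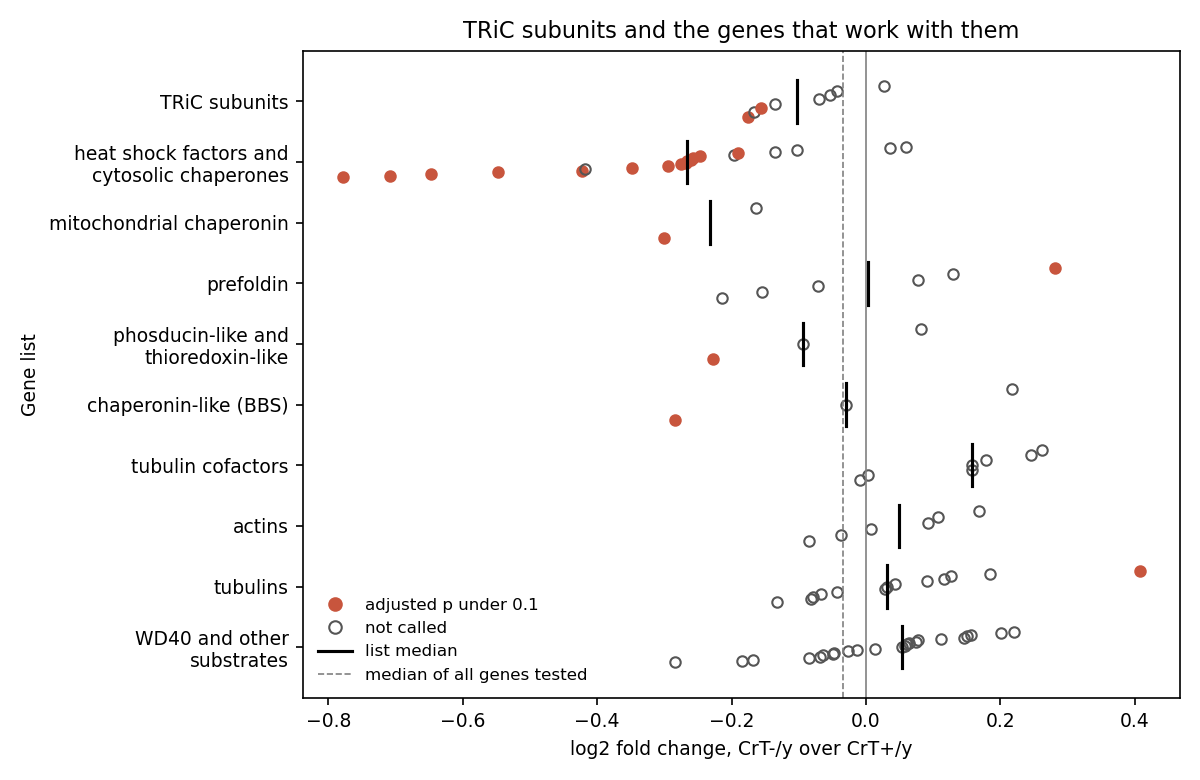
Log2 fold change (CrT-/y minus CrT+/y) of each tested gene in the TRiC list and in 9 lists of its partners, substrates and other chaperones, with 1 point per gene, filled where called, and a line at each list median. The median is -0.10 for TRiC, 0.00 for prefoldin, 0.16 for tubulin folding cofactors and -0.27 for the heat shock list.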

How the data were processed

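Bulk RNA-seq of whole cortex from 4 CrT-/y and 3 CrT+/y animals was used. With TopHat and Cufflinks (the Tuxedo protocol), the authors aligned reads to mm10, allowing up to 2 mismatches. Reads with a unique place on annotated exons or junctions were kept, and FPKM per gene and animal were deposited. The submitters' processing notes name Bowtie and Cuffnorm. Whether libraries were also scaled to each other is not given in the sources used here. The study lists a number of reads for each library, with the CrT-/y animals numbered otherwise than in the labels, so those totals are not used here. The fragments counted per gene are not in the FPKM, so no counting interval is given.

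Genes whose mean FPKM was 1 or more were fitted, as log2(FPKM + 0.1), with limma 3.58.1 (R 4.3.3) on genotype with a variance trend. The Benjamini-Hochberg adjustment covered all 12988 genes tested, and an adjusted p under 0.1, the threshold of the study's methods, was a call. Fold changes on this scale slightly understate those of low genes. Single values were compared by two-sided exact permutation tests. Other steps used Python 3.11.15 with numpy 2.4.6 and pandas 2.3.3. The fit was tested on simulated data with independent values and with log2 changes larger than those of the members. That test therefore does not bear on the calls of the members. Transcript lengths and gene positions come from the GENCODE annotation of GRCm38.

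Groups and numbers come from the labels. The members, lists and alternatives were chosen with earlier results of these data known. Genes named are all members, every called gene and the most abundant gene of each list, all genes of prefoldin and the mitochondrial chaperonin, Slc6a8, and the 5 genes closest to the mean profile of the members. Other genes are named where a marker list, an overlapping gene or a divergent gene is described, or as list members not called, chosen after their values were seen.

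Alternatives were pseudocounts of 1 and 0.01 FPKM, no filter and a minimum of 5 FPKM, median centring, upper quartile scaling, quantile normalization, a transcript length correction, no variance trend, array weights, a replicate block, and leaving out each animal.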

Additional observations from a re-analysis of the deposited data

Results flagged for a closer look

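In groups of 4 animals, 1 animal stood far from the other 3 in 3 of the 41 groups looked at, where chance alone gives about 5%. The gap of that animal to its nearest neighbour was divided by the range of the group and set against the 95% critical value of Dixon's test. For the share of Cct2 in the summed TRiC FPKM this ratio was 0.945, set by CrT-/y replicate 2 at 15.2% beside 15.4% in each of the other CrT-/y animals. For Hspd1 it was 0.914, set by CrT-/y replicate 0 at 74.99 FPKM, the highest of its group. For Stip1 it was 0.853, set by CrT-/y replicate 1 at 49.4 FPKM, the lowest of its group.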

How the results depend on the processing

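TRiC calls depended on the setting. Of 8 members, 2 were called as reported, 3 with a minimum of 5 FPKM or with array weights, and 0 without a filter, with quantile normalization, upper quartile scaling, median centring, the transcript length correction or no variance trend. Leaving out 1 animal gave 0 to 4 called members, with 4 without CrT+/y replicate 3 and 0 without any other animal. The median log2 fold change of the members, -0.10, was -0.038 with quantile normalization and -0.041 with upper quartile scaling. Cct3 was above 0 with quantile normalization (0.022), upper quartile scaling (0.019) and without CrT+/y replicate 3, its leave-one-out range being -0.081 to 0.011. Cct6a was above 0 with quantile normalization (0.014) and upper quartile scaling (0.0089), and Cct7 was below 0 without CrT+/y replicate 1 or 2, its leave-one-out range being -0.020 to 0.12. None of the values that changed sign was called, and the cause was not tested. Cct2, Cct5 and Cct8 stayed below 0 in all 20 settings, with ranges of -0.22 to -0.11, -0.17 to -0.08 and -0.20 to -0.09, and were called in 6, 6 and 3 of them.

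Over all genes tested 1318 were called, 377 higher and 941 lower. The split was 528 higher and 555 lower with quantile normalization, 741 and 463 with upper quartile scaling, and 490 and 527 with median centring. The total was 730 without a filter, and 64 (without CrT-/y replicate 1) to 3736 (without CrT+/y replicate 3) with 1 animal left out. Of the companion lists 19 genes were called, 11 without a filter, 12 with no variance trend, and 3 to 35 with 1 animal left out. With the replicate block 0 members, 576 genes and 11 companions were called, and with the block and the transcript length correction 0 members, 173 genes and 5 companions. Deviations from the group means correlated at -0.08, 0.05 and -0.05 between same-numbered animals, not every animal correlated best with its own number, and the numbers were not taken as pairs.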
